A study of Mus musculus with 18 samples.

Results

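The 37 genes described here are interferon response genes, the antiviral and immune genes that a cell transcribes when interferon reaches its receptors. They were chosen by name, from what the genes are known to do, with earlier results of these data known. All 37 were among the 34745 genes of the deposited table, and all 37 passed the filter on low counts that left 14241 genes for testing. RNA-seq was done on bone marrow-derived macrophages (BMDMs), which are bone marrow cells grown with M-CSF, the growth factor of the macrophage lineage, from Zmat1 knockout (KO) mice of the C57BL/6 background, in which the gene is knocked out globally, and from WT littermates, at 4 to 8 weeks of age by the methods of the study. The cultures then received RANKL, the cytokine that turns macrophages into bone-resorbing osteoclasts, for 0, 1 or 3 days, and M-CSF was given to all groups. The 6 groups of label and day held 3 libraries each, with totals of 13789775 to 17559958 counts per library. The sources used here do not say which libraries came from separate mice, so the p-values measure the spread between these libraries, which may be technical.

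The labels of the libraries need care. Zmat1 itself was counted at 2.19 to 7.50 CPM (counts scaled to library size) in the 9 libraries labelled WT and at 3.49 to 7.61 CPM in the 9 libraries labelled KO, so the ranges overlapped and the transcript did not separate the labels. The groups are therefore called by their labels throughout. The study reports PCR genotyping of tail DNA and a qPCR check of Zmat1 mRNA in BMDMs of both genotypes. Counts over the whole gene do not show whether a part of it is missing, and which part was deleted is not known here. The titles of 5 libraries are written with a double hyphen, namely WT day 0 library 1, a WT day 1 library, KO day 0 library 2 and KO day 1 libraries 1 and 2. When the title style was added to the 6 groups, 23.2% of all genes tested passed an adjusted p of 0.05 but 0 of the 37 interferon response genes did by edgeR, with 0 called by limma and 3 by DESeq2. At an unadjusted p under 0.05 there were 4 of the 37 and 5255 of all 14241 genes. WT day 1 has 2 libraries numbered 1 and none numbered 3. The double-hyphen library of that pair is written here as library 1b.

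Interferon-alpha and interferon-beta bind the IFNAR receptor, which activates the kinases JAK1 and TYK2. These act on STAT proteins, among them STAT2, which joins IRF9 in the ISGF3 complex, and ISGF3 binds a DNA element named the interferon-stimulated response element (ISRE) in the promoters of its targets. The products block viral RNA and protein synthesis, sense viral RNA, or feed back on the pathway, and interferon-gamma acts on another element, the gamma-activated site (GAS). In osteoclast precursors RANKL is known to induce a low amount of interferon-beta, which restrains osteoclast formation through IFNAR, and macrophages carry a basal interferon tone in culture.

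The letters of these elements were looked for in the promoters of the genes. RefSeq windows of the GRCm38.p6 build, which run from 250 bases before to 50 bases after a start site, matched 27 of the 37 genes. Mx1, Mx2, Rtp4, Parp9, Parp14, Oas2, Iigp1, Usp18, Dhx58 and Zbp1 had none. The ISRE core, searched on both strands as GAAA, any 2 bases and GAAA, occurred in the windows of 17 of the 27 genes (63%) against 3.99% of all genes with a window. The GAS motif TTCNNNGAA, which reads the same on both strands, occurred in 10 of the 27 genes (37%) against 9.55% of all genes with a window. The sequences of the genes with the deepest changes described below that had a window are shown from 200 bases before the start site, 5′ to 3′ on the strand of the gene, without bases that lie in an annotated exon. Capitals mark ISRE cores, which appear here as their reverse complement.
Ifit3, chr19:34583329-34583528, plus strand: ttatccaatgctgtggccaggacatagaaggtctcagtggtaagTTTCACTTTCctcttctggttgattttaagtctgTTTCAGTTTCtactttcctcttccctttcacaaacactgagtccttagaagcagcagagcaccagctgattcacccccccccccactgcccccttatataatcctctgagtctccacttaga
Rsad2, chr12:26456453-26456652, minus strand: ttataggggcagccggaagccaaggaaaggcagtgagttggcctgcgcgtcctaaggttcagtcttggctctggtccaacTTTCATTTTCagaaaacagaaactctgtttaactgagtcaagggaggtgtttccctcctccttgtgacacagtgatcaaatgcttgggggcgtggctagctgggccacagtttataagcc
Gbp5, chr3:142496734-142496899, plus strand: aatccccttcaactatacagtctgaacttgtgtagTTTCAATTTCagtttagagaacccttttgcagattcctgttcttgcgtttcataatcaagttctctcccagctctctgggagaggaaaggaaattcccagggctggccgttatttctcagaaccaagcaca
Ifit2, chr19:34550494-34550693, plus strand: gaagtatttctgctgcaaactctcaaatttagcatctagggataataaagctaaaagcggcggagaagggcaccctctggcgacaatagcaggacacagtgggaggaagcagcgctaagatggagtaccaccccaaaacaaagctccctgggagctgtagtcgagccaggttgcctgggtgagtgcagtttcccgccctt
Cmpk2, chr12:26469015-26469203, plus strand: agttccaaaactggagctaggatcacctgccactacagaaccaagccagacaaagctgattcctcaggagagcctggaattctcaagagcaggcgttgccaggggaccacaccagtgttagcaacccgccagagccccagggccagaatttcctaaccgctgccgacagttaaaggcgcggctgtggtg

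Ifit3 carried 2 cores in this stretch, Rsad2 and Gbp5 carried 1 each, and the stretches of Ifit2 and Cmpk2 held none. The Gbp5 stretch lies inside the span the files give for that gene, and Ifit2 has another RefSeq start that is not shown. Isg15 had 3 overlapping cores between 78 and 57 bases before its start. Over 3 days of RANKL in the libraries labelled WT the median log2 fold change was -2.21 for the 17 genes with a core, -2.41 for the 10 genes with a window but no core and -2.40 for the 10 genes without a window. The medians were thus close to each other, and the largest change of all belonged to Ifit2, whose stretch holds no core.

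At day 0 the genes covered a wide range of levels. By mean FPKM, which is scaled for transcript length and so allows genes to be compared, the highest in the libraries labelled WT was Bst2 at 735 ± 597 (SD, n = 3), a membrane protein that tethers budding viruses. Ifit3 followed at 207 ± 144, and with Isg15 at 152, Ifit2 at 129 and Rtp4 at 125 the neighbours in this order lay well within that spread. The lowest were Isg20 at 4.18, Mx2 at 4.35 and Gbp5 at 5.42. On day 3 Bst2 was still the highest at 292 ± 53.1, and Ifit2 had dropped from the fourth to the 28th rank of the 37, at 3.91.

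Over 3 days of RANKL the interferon response genes fell together under both labels. In the libraries labelled WT, 36 of the 37 were lower at day 3 than at day 0 by edgeR's quasi-likelihood test at an adjusted p under 0.05 and 0 were higher, against 26.5% of all genes tested that were lower. The median log2 fold change was -2.27, which is 4.83-fold lower, with a range from -5.41 to -0.92, and the median over all genes tested was -0.031. In the libraries labelled KO, 35 of the 37 were lower and 0 were higher, against 22.3% of all genes, with a median of -2.34, or 5.07-fold lower. All 3 day 3 libraries lay below all 3 day 0 libraries for 35 of the 37 genes under the WT label, where 31% of all genes did so, and for 34 under the KO label, where 29.4% did. With total counts in place of TMM scaling, the median of all genes moved to 0.33 and 0.29 and that of the interferon response genes to -1.91 and -2.05. Since these are bulk cultures, fewer cells of a type and less RNA per cell cannot be told apart. No library came from cells kept for 1 or 3 days without RANKL, so RANKL and time in culture cannot be told apart either.

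**Figure D1:**
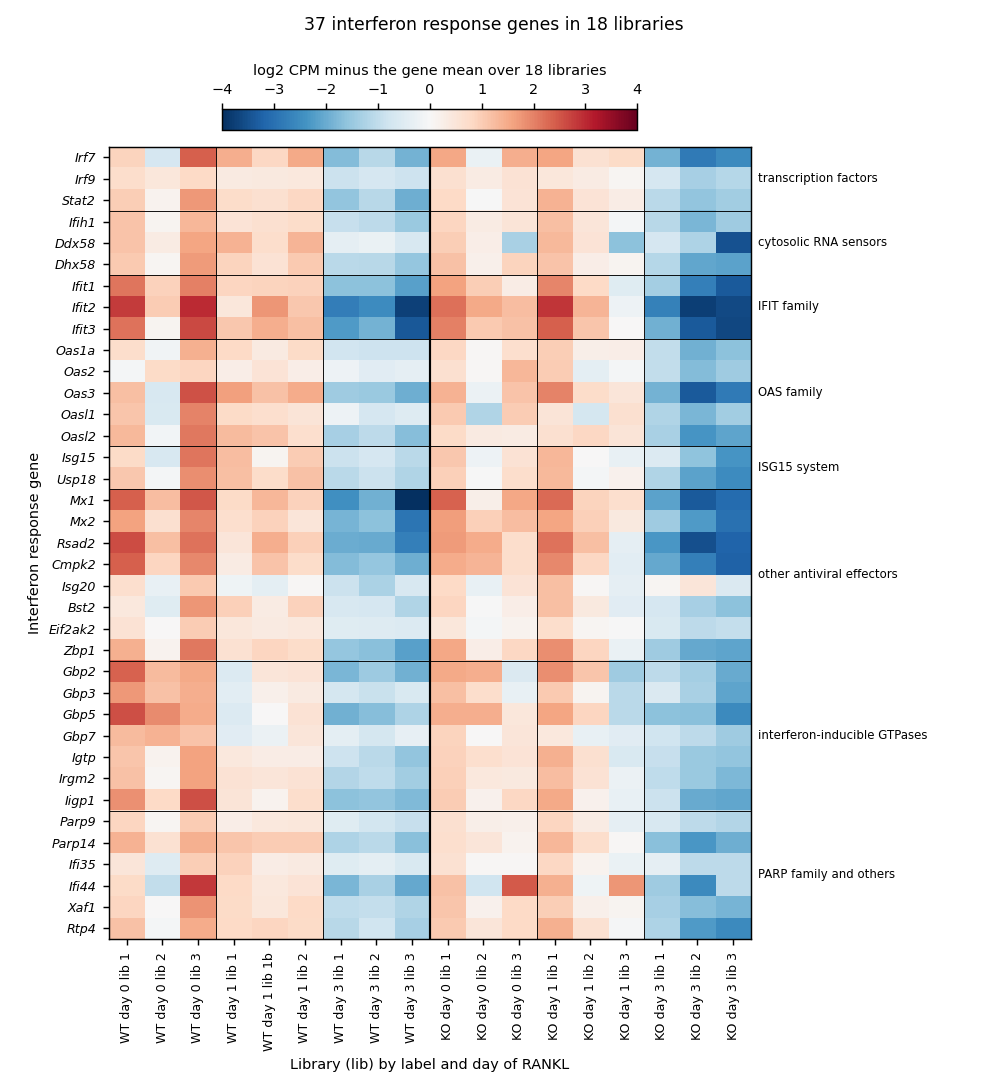
Heat map of the 37 interferon response genes (rows, grouped by role) in the 18 libraries (columns, by label and day of RANKL), coloured by log2 CPM minus the gene's mean over all libraries. The 6 day 3 columns are blue for nearly every gene, WT day 0 library 3 and the KO libraries numbered 1 are the reddest of their groups, and Ddx58 is blue in KO library 3 on every day.

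The transcription factors Irf7, Irf9 and Stat2, which carry the interferon signal, were among them. Irf7 (chr7:141262706-141266481), the factor that amplifies interferon-alpha production, was at 423, 144 and 1184 CPM in the 3 WT day 0 libraries and at 69.2, 105 and 61.0 CPM at day 3. The day 3 values were all lower than the lowest day 0 value, although day 0 itself spread widely. The change was 7.45-fold lower (log2 fold change -2.90 ± 0.64 SE, adjusted p = 0.00197). In the libraries labelled KO, Irf7 went from 662, 190 and 621 CPM to 61.5, 32.2 and 38.9 CPM, 11.1-fold lower (-3.47 ± 0.66 SE, adjusted p = 0.00101).

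Stat2 (chr10:128270576-128292849), a STAT protein of the ISGF3 complex, was at 344, 190 and 575 CPM in the WT day 0 libraries and at 58.5, 80.3 and 44.8 CPM at day 3. That is 6.04-fold lower (-2.59 ± 0.38 SE, adjusted p = 0.000111), and the groups did not overlap. The KO libraries went from 303, 171 and 254 CPM to 81.5, 57.5 and 66.2 CPM, 3.55-fold lower (-1.83 ± 0.37 SE, adjusted p = 0.0017). Irf9 (chr14:55603571-55610030), the DNA-binding part of ISGF3, changed less and with the tightest replicates of the 3 factors, from 123, 104 and 132 CPM to 41.8, 47.5 and 42.5 CPM under the WT label. It was 2.73-fold lower there (-1.45 ± 0.16 SE, adjusted p = 1.5e-05) and 2.92-fold lower under the KO label (-1.55 ± 0.16 SE, adjusted p = 1.9e-05).

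Of the cytosolic RNA sensors, which bind viral RNA, Ifih1 (MDA5), which signals through MAVS, and Dhx58 (LGP2), a regulator of the others, fell under both labels. Ifih1 was 4.25-fold lower under the WT label and 3.99-fold lower under the KO label, and Dhx58 was 4.98-fold and 5.68-fold lower. Ddx58 (RIG-I) had log2 fold changes of -1.51 ± 0.71 SE and -1.64 ± 0.72 SE, with adjusted p = 0.0895 and adjusted p = 0.078. It did not pass the test. The KO libraries of days 0 and 3 were taken to pair by number, which is uncertain. With the library number as a block within each label, Ddx58 passed in the libraries labelled KO (adjusted p = 0.00129). That block takes up the low KO library 3 of Ddx58 described below.

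The IFIT genes, whose products bind foreign RNA and stop its translation, included the gene with the deepest change under each label, Ifit2. They lie in 1 cluster on chromosome 19 and all 3 were lower under both labels. Ifit2 (chr19:34550694-34576419) was at 765, 223 and 878 CPM in the WT day 0 libraries and at 16.4, 19.3 and 8.30 CPM at day 3. The change was 42.4-fold (-5.41 ± 0.78 SE, adjusted p = 9.2e-05), the largest of the 37. The KO libraries went from 507, 318 and 261 CPM to 16.9, 8.07 and 9.01 CPM, 32.0-fold lower (-5.00 ± 0.77 SE, adjusted p = 0.000245).

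Ifit3 (chr19:34583531-34588731) went from 450, 107 and 632 CPM to 21.1, 27.4 and 9.65 CPM under the WT label, 20.5-fold lower (-4.36 ± 0.75 SE, adjusted p = 0.000336), and was 19.0-fold lower under the KO label (-4.24 ± 0.74 SE, adjusted p = 0.000609). Ifit1 was 11.98-fold lower under the WT label and 9.78-fold lower under the KO label. Ifit3 has a close neighbouring copy, Ifit3b, which was 15.2-fold lower under the WT label, and how reads shared by such copies were split is not given in the sources used here.

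The OAS genes encode the enzymes that make 2-5A, the messenger that switches on RNase L, together with OAS-like proteins. All 5 were lower under both labels, by a median of 3.08-fold under the WT label and 4.30-fold under the KO label. Oas3 was the deepest, 8.93-fold and 11.2-fold lower. Oas2 was the shallowest of all 37 under the WT label, from 87.8, 158 and 167 CPM to 79.8, 67.0 and 71.4 CPM (-0.92 ± 0.37 SE, adjusted p = 0.0487), and its call held in only 7 of 18 alternatives. The KO libraries went from 143, 95.4 and 233 CPM to 46.9, 28.02 and 34.7 CPM (-2.10 ± 0.38 SE, adjusted p = 0.000735). Oasl1 was 3.08-fold and 4.08-fold lower, with day 0 and day 3 libraries that overlapped under both labels. Of the ISG15 system, the ubiquitin-like modifier Isg15 was 4.10-fold and 3.71-fold lower and Usp18, the protease that removes it and also blocks IFNAR signalling, was 4.55-fold and 5.42-fold lower.

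**Figure D2:**
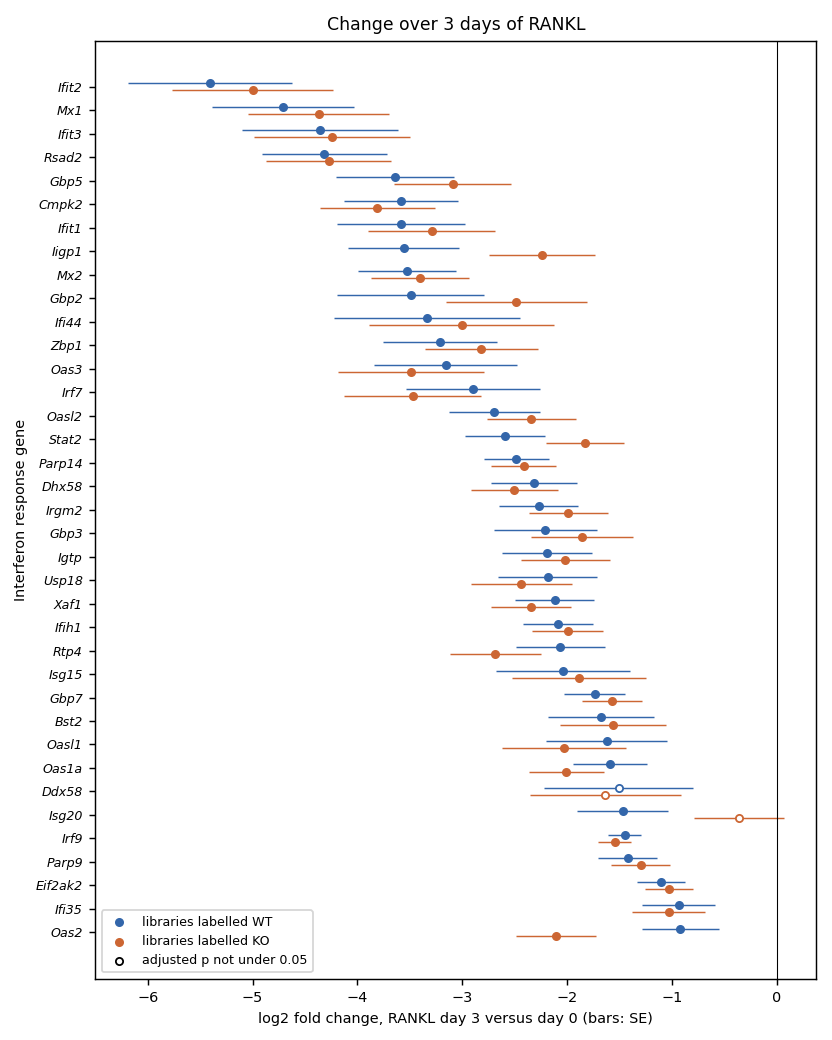
Log2 fold change of the 37 genes between RANKL day 3 and day 0 in the libraries labelled WT (blue) and KO (orange), with bars for the SE of the edgeR fit and open points where the adjusted p was not under 0.05. Every point lies below 0, from -5.41 for Ifit2 to -0.36 for Isg20 in the libraries labelled KO, and the open points are Ddx58 under both labels and Isg20 under the KO label.

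Among the other antiviral effectors, all 8 were lower under the WT label and 7 of 8 under the KO label. Mx1 (chr16:97447035-97462907), a dynamin-like GTPase that blocks influenza virus, was at 142, 63.8 and 152 CPM in the WT day 0 libraries and at 4.96, 7.12 and 1.57 CPM at day 3. It was 26.2-fold lower (-4.71 ± 0.68 SE, adjusted p = 9e-05), and 20.7-fold lower under the KO label (-4.37 ± 0.67 SE, adjusted p = 0.000246). Its relative Mx2 was 11.6-fold and 10.6-fold lower, from a mean of 24.2 CPM to 2.09 CPM and from 21.5 CPM to 2.02 CPM.

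Rsad2, which encodes viperin, and Cmpk2, a nucleotide kinase encoded beside it on chromosome 12, moved alike. Rsad2 (chr12:26442753-26456452) went from 453, 172 and 338 CPM to 18.7, 18.5 and 11.1 CPM under the WT label, 19.9-fold lower (-4.32 ± 0.60 SE, adjusted p = 7e-05), and was 19.4-fold lower under the KO label (-4.28 ± 0.60 SE, adjusted p = 0.000134). Cmpk2 (chr12:26469204-26479835) went from 238, 83.1 and 174 CPM to 13.9, 15.6 and 11.7 CPM (-3.58 ± 0.54 SE, adjusted p = 0.000127), and was 14.1-fold lower under the KO label (-3.81 ± 0.55 SE, adjusted p = 0.000162). For both genes all day 3 libraries lay under all day 0 libraries.

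Zbp1, a sensor of Z-form nucleic acid, was 9.29-fold and 7.05-fold lower, Bst2 was 3.19-fold and 2.96-fold lower, and Eif2ak2 (PKR), the kinase that shuts down translation on double-stranded RNA, was 2.15-fold and 2.04-fold lower. Isg20, an exonuclease, was the exception of the group. It was 2.77-fold lower under the WT label (adjusted p = 0.0121), whereas under the KO label its values were 20.2, 9.38 and 17.0 CPM at day 0 and 12.1, 16.4 and 7.70 CPM at day 3. Those overlapped and did not pass the test (-0.36 ± 0.43 SE, adjusted p = 0.512).

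The interferon-inducible GTPases attack the vacuoles of intracellular pathogens and respond strongly to interferon-gamma. All 7 were lower under both labels, with a median of 4.83-fold under the WT label and 4.05-fold under the KO label. Gbp2, Gbp3, Gbp5 and Gbp7 lie in 1 cluster on chromosome 3. Gbp5 (chr3:142493978-142522344) went from 86.5, 54.1 and 40.4 CPM to 3.87, 4.47 and 6.12 CPM under the WT label, 12.5-fold lower (-3.64 ± 0.57 SE, adjusted p = 0.000161), and was 8.52-fold lower under the KO label (-3.09 ± 0.56 SE, adjusted p = 0.000758). Gbp2 was 11.3-fold and 5.60-fold lower, Gbp3 4.63-fold and 3.63-fold, and Gbp7 3.34-fold and 2.97-fold. Iigp1 was 11.8-fold and 4.73-fold lower. Igtp (4.57-fold and 4.05-fold) and Irgm2 (4.83-fold and 3.97-fold) overlap on the same strand of chromosome 11 in the files, so reads from the shared stretch cannot be assigned to either with certainty.

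All 6 genes of the remaining group were lower under both labels. Parp14 and Parp9, a pair of ADP-ribosyltransferase family members that act in interferon-stimulated macrophages, were 5.60-fold and 2.68-fold lower under the WT label and 5.34-fold and 2.46-fold lower under the KO label. Ifi44 was 10.1-fold and 8.04-fold lower, Xaf1, a partner of the apoptosis inhibitor XIAP, 4.34-fold and 5.09-fold, and Rtp4 4.18-fold and 6.43-fold. Ifi35 was the shallowest at 1.91-fold and 2.05-fold, and its WT day 0 and day 3 libraries overlapped.

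Not every call was equally firm. Of the 36 genes called under the WT label, 29 were called under every alternative processing, and 7 (Bst2, Ifi35, Ifi44, Isg15, Isg20, Oas2 and Oasl1) lost the call under at least 1. Each of these 7 lost it without WT day 0 library 3, with adjusted p values from 0.0534 for Isg20 to 0.206 for Ifi35. For the KO label 30 of the 35 held under every alternative and Bst2, Ifi35, Ifi44, Isg15 and Oasl1 did not. Without KO day 3 library 2, these 5 had adjusted p values between 0.0557 and 0.0973. Ddx58 was at an adjusted p of 0.0452 without KO day 0 library 3.

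The rest of the pathway was read from lists of genes outside the 37. Of 21 interferon genes, 18 had a count of 0 in every library, which limits each to at most 0.155 to 0.25 CPM per library (3 counts, counting error only), and none reached the filter for testing. Ifnb1, which encodes interferon-beta, had 18 counts in all, spread over 5 libraries, and 12 of them (0.858 CPM) were in WT day 0 library 3. That library also held the highest value of its group for 30 of the 37 genes. A link between these values was not tested. Ifng had 3 counts, in WT day 3 library 2.

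Of 16 receptor and JAK-STAT genes, 12 were lower and 1 was higher at day 3 under the WT label, where 26.5% of all genes were lower and 3370 of the 14241 were higher, with a median log2 fold change of -0.89. Ifnar2, a chain of the interferon-alpha and -beta receptor, was 3.35-fold lower (-1.74 ± 0.16 SE, adjusted p = 4.8e-06), and Ifnar1, the other chain, was 1.41-fold lower (-0.50 ± 0.19 SE, adjusted p = 0.0434). The gene that rose was Socs3, an inhibitor of cytokine receptor signalling (1.82 ± 0.42 SE, adjusted p = 0.00267). For the KO label, where 22.3% of all genes were lower and 2873 of the 14241 were higher, 10 were lower and 2 were higher, namely Socs3 and Ptpn11, with a median of -0.76. The same shares of all genes stand beside the counts of the lists and markers that follow.

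Of 23 genes that act upstream of interferon, 19 were lower under the WT label and 21 under the KO label, with 0 higher and medians of -1.68 and -1.33. The nucleic acid receptor Tlr9 was 13.8-fold lower under the WT label (-3.79 ± 0.44 SE, adjusted p = 2.1e-05), and Irf8, a macrophage lineage factor that is known to restrain osteoclast formation, was 5.89-fold lower (-2.56 ± 0.37 SE, adjusted p = 9.5e-05). Irf3 had an adjusted p of 0.0587 and Traf3 an adjusted p of 0.193 there.

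Of 64 rows of further interferon response genes tested, which hold Gbp6 at 2 rows, 57 were lower and 1 was higher under the WT label (median -2.10), and 52 were lower and 1 higher under the KO label (median -1.97). The gene that was higher under both labels was Ifi27, at mean levels of 35.8 CPM at WT day 0 and 131 CPM at WT day 3 and of 31.4 and 125 CPM under the KO label. It was at 29.1, 65.7 and 12.6 CPM in the WT day 0 libraries, an order opposite to that of most of the 37 genes. The medians of the list lay near those of the 37.

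Markers of other cell types moved over the same days. Of 10 osteoclast markers 9 were higher at day 3 under each label, with medians of 7.30 and 6.25 on the log2 scale. Their summed level went from 224 to 649 CPM at WT day 0 to 16000 to 23400 CPM at WT day 3, and Calcr, the calcitonin receptor of mature osteoclasts, was at 0 in all libraries of days 0 and 1. Macrophage markers fell, 8 of 10 rows under each label, with median log2 fold changes of -2.18 and -1.88 that are close in size to those of the interferon response genes. Their summed level was 29400 to 57400 CPM in the WT day 0 libraries and 6360 to 13100 CPM at day 3. Neutrophil markers were lower for 9 of 9 under each label, from sums of 684 to 3120 CPM to sums of 38.1 to 71.1 CPM under the WT label and from 3750 to 12100 CPM to 102 to 1180 CPM under the KO label.

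B cell markers summed to 296 to 406 CPM at WT day 0 and to 10.2 to 10.5 CPM at WT day 3, where Ms4a1 and Pax5 were at 0. The markers of plasmacytoid dendritic cells, which are specialised interferon producers, summed to 105 to 170 CPM at WT day 0 and to 50.9 to 55.7 CPM at WT day 3. Most of these sums was Tcf4, at 104, 166 and 112 CPM at WT day 0 and 54.2, 54.6 and 49 CPM at WT day 3. Siglech was at 0.824, 2.94 and 2.22 CPM in the WT day 0 libraries. Of the 4 tested, 3 were lower under the WT label and 1 of 4, near the share of all genes, under the KO label. T or NK cell markers stayed at or below 8.81 CPM in all 18 libraries. Stromal or osteoblast markers summed to 72.5 to 4050 CPM at WT day 0 and 9650 to 12600 CPM at WT day 3, and to 16800 to 25000 CPM at KO day 3. Most of each of these sums was the collagen genes Col1a1, Col1a2 and Col3a1. Col1a1 was at 8270, 11700 and 12100 CPM in KO day 3 libraries 1, 2 and 3. Alpl was at 127, 113 and 20.6 CPM there and Sp7 at 22.6, 19.9 and 7.65 CPM. Erythroid markers summed to at most 24.5 CPM in any library. They split by title style, at 0.0769 to 1 CPM with double-hyphen titles and 15.6 to 24.5 CPM with single-hyphen titles. The part of these cell types in the fall of the interferon response genes was not tested.

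By point estimate most of the fall came between day 1 and day 3. Between day 0 and day 1, 1 of the 37 genes was lower under the WT label, against 0.913% of all genes, and 35 had log2 fold changes below 0 with a median of -0.39. The WT day 1 libraries lay wholly below the day 0 libraries for 7 genes, against 8.04% of all genes. The WT median was -0.73 without library 2 of day 0 and -0.072 without library 3. In the libraries labelled KO, 0 of the 37 passed by edgeR or by any alternative, including DESeq2 and limma, with 0 at an unadjusted p under 0.05. There 0.0211% of all genes passed in either direction, the median was -0.016, and 0 of the 37 had day 1 libraries wholly below day 0, against 10.6% of all genes. The KO median was -0.57 without library 1 of day 1 and 0.26 without library 3 of day 1. Single-hyphen titles alone leave library 3 as the only KO library of day 1, the lowest of its group for 31 of the 37 genes, and the median is then -1.02.

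Between day 1 and day 3, 30 of the 37 were lower under the WT label, against 19.3% of all genes, with a median of -1.88. The 7 that did not pass were Ddx58, Gbp3, Gbp7, Ifi44, Isg20, Oas2 and Oasl1. For the KO label 35 were lower, against 15.5%, with a median of -2.21. With KO day 1 library 3 alone on the side of day 1, as single-hyphen titles leave it, 9 were lower, and 606 of all genes were called in either direction. Isg20 did not pass there (-0.39 ± 0.42 SE, adjusted p = 0.512), nor did Ddx58 (-1.89 ± 0.72 SE, adjusted p = 0.064), which passed with the library number as a block (adjusted p = 0.00196). Comparisons that share a day share its libraries and are not independent.

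The gene called at WT day 1 was Gbp7, which went from 147, 159 and 136 CPM to 44.7, 52.5 and 86.1 CPM under the WT label (-1.27 ± 0.29 SE, adjusted p = 0.0405). Its adjusted p ranged from 0.00185 to 0.448 over the alternatives, and it lost the call in 12 of 18, so the call is not firm. Gbp5 went from 86.5, 54.1 and 40.4 CPM to 9.92, 14.7 and 21.6 CPM without overlap (-1.97 ± 0.52 SE, adjusted p = 0.0598), and Iigp1 from 127, 62.3 and 214 CPM to 51.6, 39.8 and 58.7 CPM (-1.43 ± 0.48 SE, adjusted p = 0.117). Gbp2 and Gbp3 had log2 fold changes of -1.55 and -1.38 and also did not overlap, so all 4 Gbp genes of the chromosome 3 cluster had their WT day 1 libraries below day 0.

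Under the KO label the 3 smallest p values at day 1 were those of Gbp7 (-0.55 ± 0.28 SE, adjusted p = 0.531), Irf9 (-0.22 ± 0.15 SE, adjusted p = 0.67) and Oas2 (-0.46 ± 0.36 SE, adjusted p = 0.711). The day 0 and day 1 libraries overlapped for all 3. The difference between the labels in the change from day 0 to day 1 was tested as an interaction. By edgeR 0 of the 37 passed, as did 0% of all genes, with 1 of the 37 at an unadjusted p under 0.05 and 0 by DESeq2 or limma. The median interaction was 0.50, with 35 of the 37 above 0. The smallest p values belonged to Gbp5 (1.59 ± 0.72 SE, unadjusted p = 0.0433, adjusted p = 1), Iigp1 (1.39 ± 0.68 SE, adjusted p = 1) and Gbp7 (0.72 ± 0.40 SE, adjusted p = 1). With single-hyphen titles alone, where KO day 1 is library 3 only, the median of the interaction was -0.52 and Gbp5 was also at -0.52.

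The libraries of the labels were compared on each day. Of the 37 genes, 0 passed the edgeR test on day 0, day 1 or day 3, and 0 passed under any alternative, DESeq2 and limma included. Of all genes 0.119%, 0.112% and 0.14% passed on the 3 days. At an unadjusted p under 0.05 there were 3, 0 and 3 of the 37, and 1081, 1125 and 1521 of all 14241 genes. On day 0 the median log2 fold change of KO against WT was -0.50, with 36 of the 37 genes below 0, and the libraries labelled KO lay wholly below those labelled WT for 2 genes, against 5.22% of all genes.

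On day 1 the median was -0.014, with 20 genes below 0, and 0 genes were wholly below, against 5.82% of all genes. On day 3 the median was -0.38, with 32 genes below 0, and 9 genes were wholly below, against 13.3% of all genes, and 1 wholly above, against 2263 of all 14241 genes. The day 0 median moved to -0.83 when library 2 of the WT group was left out and to -0.059 when its library 3 was left out. That of day 3 moved to -0.76 without KO library 1 and to -0.18 without KO library 3. That of day 1 was 0.24 without KO library 3, -0.42 without KO library 1 and -0.87 with single-hyphen titles alone, which leave KO library 3 against 2 WT libraries.

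On day 0 the smallest p values were those of Gbp7, Iigp1 and Parp14. Gbp7 was at 114, 61.3 and 86.0 CPM in the libraries labelled KO, all under the 136 to 159 CPM of those labelled WT (-0.76 ± 0.28 SE, adjusted p = 0.558). Iigp1 was at 73.4, 40.2 and 63.6 CPM, of which only 40.2 CPM lay below the wide WT range of 62.3 to 214 CPM (-1.19 ± 0.48 SE, adjusted p = 0.6). Parp14 was at 522, 459 and 359 CPM against 845, 492 and 875 CPM (-0.72 ± 0.29 SE, adjusted p = 0.607).

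On day 1 Gbp5 (0.73 ± 0.51 SE, adjusted p = 0.732), Isg20 (0.61 ± 0.43 SE, adjusted p = 0.732) and Gbp2 (0.80 ± 0.64 SE, adjusted p = 0.761) had the smallest p values. All 3 point estimates were above 0, and with KO library 3 as the only KO library, as single-hyphen titles leave it, they were -1.19, -0.30 and -1.51.

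On day 3 Oas2 was at 46.9, 28.02 and 34.7 CPM in the libraries labelled KO and at 79.8, 67.0 and 71.4 CPM in those labelled WT, without overlap (-0.99 ± 0.37 SE, adjusted p = 0.365). Parp14 was at 102, 64.1 and 84.5 CPM against 138, 153 and 103 CPM (-0.65 ± 0.29 SE, adjusted p = 0.45). Isg20 was the gene that lay wholly above, at 12.1, 16.4 and 7.70 CPM against 6.35, 4.88 and 7.52 CPM (0.95 ± 0.43 SE, adjusted p = 0.454).

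Averaged over the 3 days, 0 of the 37 passed by edgeR or limma and 1 by DESeq2, where 1.59% of all genes passed by edgeR. At an unadjusted p under 0.05 there were 5 of the 37 and 2622 of all 14241 genes. The median was -0.29, with 33 genes below 0. Parp14 was at -0.55 ± 0.17 SE (adjusted p = 0.104, from 0.0374 to 0.34 over the alternatives), Gbp7 at -0.47 ± 0.16 SE (adjusted p = 0.147) and Oasl2 at -0.58 ± 0.23 SE (adjusted p = 0.2). The gene called by DESeq2 was Parp14.

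Outside the 37 genes, 1 gene of the list of further interferon response genes passed between the labels on day 0 and on average. It was Tgtp1, an interferon-inducible GTPase of the family that Igtp, Irgm2 and Iigp1 belong to, at 32.1, 9.29 and 69.4 CPM in the WT day 0 libraries and 1.71, 1.15 and 0.801 CPM in the KO day 0 libraries (log2 fold change -4.91 ± 0.62 SE, adjusted p = 0.00128). It was lower under the KO label on day 1 and day 3 as well, without overlap, though neither day passed (adjusted p = 0.0594 and adjusted p = 0.118). Tgtp2, a near-identical copy, went the other way on average (1.23 ± 0.32 SE, adjusted p = 0.0634), with 5.01, 4.88 and 3.81 CPM in the WT day 3 libraries and 23.5, 22.2 and 15.6 CPM in the KO day 3 libraries. How reads shared by these copies were divided is not given in the sources used here, so the level of either gene is uncertain. Of the 37 genes, 0 passed between the labels on any day by edgeR, limma or DESeq2.

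The change from day 0 to day 3 did not differ detectably between the labels. By edgeR 0 of the 37 interactions passed, as did 0% of all genes, with 1 at an unadjusted p under 0.05, and 0 passed by DESeq2 or limma. The median interaction was 0.11. Oas2 had the smallest p (-1.19 ± 0.52 SE, unadjusted p = 0.0369, adjusted p = 0.91), followed by Iigp1 (1.32 ± 0.69 SE, adjusted p = 0.921) and Isg20 (1.11 ± 0.60 SE, adjusted p = 0.921). Beside these values, the 9 neutrophil markers all had point estimates above 0 for KO against WT on day 0 and on day 3, with medians of 1.90 and 3.31 on the log2 scale, 5 and 8 at an unadjusted p under 0.05 and 0 called by edgeR, and the part of this in the label comparisons was not tested.

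**Figure D3:**
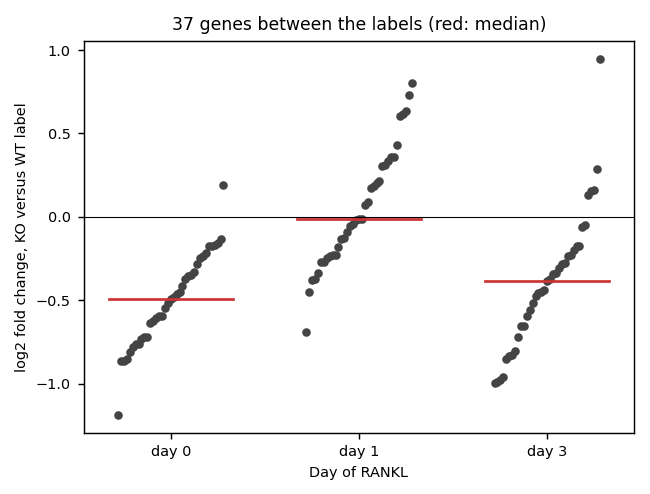
Log2 fold change of KO against WT label for the 37 interferon response genes on each day of RANKL, 1 point per gene in rising order, with the median in red. Medians were -0.50, -0.014 and -0.38 on days 0, 1 and 3, most points on days 0 and 3 lie below 0, and no gene passed an adjusted p of 0.05 in edgeR.

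The libraries of a group differed from each other more in these genes than in most others. The SD of log2 CPM around the group means had a median of 0.612 over the 37 genes and 0.302 over all genes tested, and 35 of the 37 exceeded the latter. The spread was largest at WT day 0 (0.780 against 0.304) and KO day 1 (0.741 against 0.251). At WT day 1 it was 0.241 against 0.314, and 13 of the 37 were above the median of all genes. Ifi44 (1.16), Ddx58 (1.04) and Gbp2 (0.945) had the largest SD.

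The genes moved up and down together between libraries. WT day 0 library 3 held the highest value of its group for 30 of the 37 genes and library 2 the lowest for 34, where 37.3% and 32% of all genes had those libraries as highest and lowest. The mean log2 CPM over the 37 genes was 7.35, 6.31 and 7.81 in WT day 0 libraries 1, 2 and 3, a span of 2.82-fold. Among the libraries labelled KO, number 1 was the highest for 34, 34 and 35 of the 37 genes on days 0, 1 and 3, where 29.1%, 25.8% and 28.8% of all genes had it as the highest. Its mean log2 CPM was 7.19, 7.41 and 4.84, against 6.38 and 6.67, 6.5 and 5.93, and 4.08 and 3.95 in the other libraries of those groups.

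The sources used here do not say that a number marks the same mouse or culture. Marker sums of the same libraries did not follow a single order. At WT day 0, library 3 had 4050 CPM of stromal or osteoblast markers against 72.5 and 450 CPM, 29400 CPM of macrophage markers against 57400 and 49100 CPM, and 3120 CPM of neutrophil markers against 2660 and 684 CPM. KO day 1 library 3, the lowest of its group for 31 of the 37 genes, had 7130 CPM of stromal or osteoblast markers against 2890 and 1900 CPM. Whether these differences have a part in the levels was not tested.

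**Figure D4:**
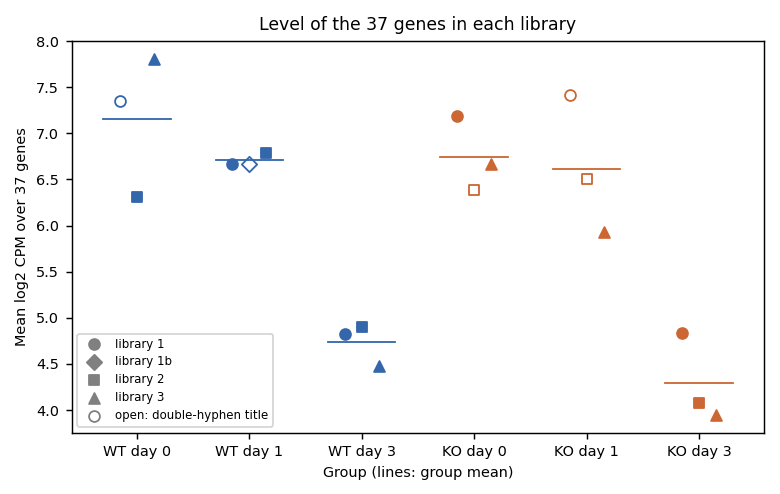
Mean log2 CPM over the 37 interferon response genes in each library, by label and day, with a line at the group mean, symbols for the library number and open symbols for double-hyphen titles. The day 3 libraries lie between 3.95 and 4.90 and all others between 5.93 and 7.81, and the KO library numbered 1 is the highest of its group on each day.

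Ddx58 had the highest value of each KO group in library 1, as most of the 37 genes did, but was set apart by a low library 3. In the libraries labelled KO, number 3 had 46.7, 37.1 and 10.4 CPM on days 0, 1 and 3, where the other libraries of those groups had 227 and 138, 284 and 169, and 73.1 and 49.1 CPM. It was thus 2.96-fold, 4.56-fold and 4.74-fold below the lower of the others. The 9 libraries labelled WT ranged from 144 to 345 CPM on days 0 and 1 and from 75.0 to 96.0 CPM on day 3. The other sensors were less far apart, with Ifih1 at 96.0, 63.7 and 25.04 CPM and Dhx58 at 136, 79.9 and 16.9 CPM in the same libraries. Gbp2, Gbp3 and Gbp5 were also lowest in KO number 3 on all 3 days, as were others of the 37, among them Ifit1, Cmpk2 and Igtp. Gbp2 was at 29.1, 16.4 and 10.7 CPM where the other KO libraries had 120 and 125, 94.3 and 159, and 17.0 and 21.2 CPM. KO number 3 was the lowest of its group for 14, 31 and 22 of the 37 genes on days 0, 1 and 3. Of all genes 31.5%, 39.4% and 36.4% had it as the lowest.

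Ddx58 lies at chr4:40203773-40239828 on the minus strand. Of the 14 other genes tested whose start lies within 1 Mb of its own, 0 were below 0.5 of both other KO libraries on all 3 days. Across all genes tested 93 (0.653%) met that description for KO number 3, against 18 for KO number 2, which include Ifi44, 2 for KO number 1 and 4 for WT number 2. Ddx58 was singled out after its values were seen, so these are descriptions without a test.

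**Figure D5:**
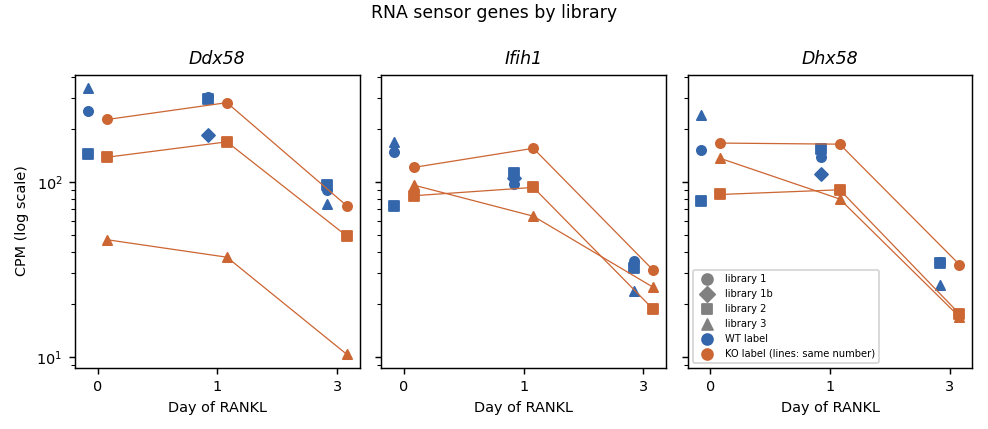
CPM on a log axis of the RNA sensor genes Ddx58, Ifih1 and Dhx58 by day of RANKL, 1 point per library, blue for the WT label and orange for the KO label, with lines that join KO libraries of the same number. KO library 3 lies apart from the rest for Ddx58 on all 3 days, at 46.7, 37.1 and 10.4 CPM, and not for the other sensors.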

How the data were processed

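The authors deposited 1 table that gives, for each gene in each library, the raw count and the FPKM, which scales fragments by transcript length and library size. According to the submitters' processing notes StringTie and the builds GRCm38.p4 and mm10 were used. The aligner and the counting program are not given in the sources used here. RNA was extracted from BMDM cultures, and each of the 18 columns of each unit was matched to its sample by name. Genes with low counts were removed by filterByExpr with the 6 groups, counts were scaled by TMM, and edgeR 4.0.16 (R 4.3.3) quasi-likelihood tests were fitted over all 18 libraries, with Benjamini-Hochberg adjustment over all 14241 genes and a threshold of 0.05. CPM values are TMM-scaled, and log2 CPM uses a prior count of 2. FPKM served to rank levels between genes and, as log2(FPKM + 1), for an alternative in limma 3.58.1. DESeq2 1.42.0 was another alternative. The script was tested on simulated counts with 200 changed genes.

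The interferon response genes and the gene lists were chosen with earlier results of these data known. Values in every library are given for the 6 members with the largest change over 3 days in the libraries labelled WT, for every called member or the 3 with the smallest p in the day 1, label and interaction comparisons, and for Irf7, Irf9 and Stat2. Library numbers were checked as pairs by correlating deviations from the group means over all genes. Under the KO label the correlations of same-numbered libraries were 0.13, 0.135 and 0.398 for days 0 and 3 and 0.218, 0.156 and 0.34 for days 1 and 3, so the numbers were taken to pair them. For days 0 and 1 they were 0.0536, 0.501 and 0.598, and under the WT label they reached at most 0.138. The KO values of 0.13 and 0.135 lie under that WT value. Correlations between libraries of different numbers are not given here, so the pairing is uncertain. Counts limit precision at low levels, and intervals or limits from counts cover counting error only. Alternatives comprised filters, scalings, tools, covariates, blocks and leaving out each library. Leaving out the double-hyphen libraries or the KO libraries of 1 number was chosen after seeing the data.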

Additional observations from a re-analysis of the deposited data

How the results depend on the processing

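The fall between day 0 and day 3 kept its direction, and its count stayed within 1.5-fold, in all 18 alternatives under the WT label (29 to 37 of 37 called) and all 20 under the KO label (30 to 36). The medians for days 3 against 0 and days 3 against 1 were smaller in limma on log2(FPKM + 1), at -1.63 and -1.34 under the WT label and -1.68 and -1.59 under the KO label; a pseudocount shrinks changes of low genes. With total counts the medians of all genes moved to 0.33 and 0.29 for days 3 against 0.

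For WT day 1 against day 0, where 1 gene was called, the count was 0 with no filter, total counts, only the groups compared, either replicate block, averaged libraries 1 and 1b, limma or single-hyphen titles alone, 2 with title style as a covariate, 4 with DESeq2, and 0 to 2 when a library was left out. Single-hyphen titles alone leave 13 libraries and KO day 1 as library 3 alone, which is assumed to vary like the other groups. Values with that library as the KO day 1 arm moved most: 9 genes called and a median of -1.59 for KO days 3 against 1, a median of -1.02 for KO days 1 against 0, -0.867 for the labels on day 1 and -0.519 for the day 1 interaction. Leaving out a library moved the median of KO days 1 against 0 between -0.569 and 0.26. Gbp5, Isg20 and Gbp2 between the labels on day 1 turned to -1.19, -0.301 and -1.51, the Gbp5 day 1 interaction turned to -0.519, and Oas2 for KO days 1 against 0 was 0.0986 without the KO libraries numbered 3. The average over days gave 1 call, Parp14, by DESeq2 and with title style as a covariate. Title style gave 3 by DESeq2 and 0 to 3 when a library was left out. The cause of the other moves was not tested.

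The library number as a replicate block called 37 genes under the WT label and 36 under the KO label for days 3 against 0, and 0 between the labels on every day. The WT numbers were not taken to pair libraries, so WT values with the block stand here. With the block within each label, Ddx58 passed for days 3 against 0 (adjusted p = 0.00252). Ddx58, Gbp3 and Ifi44 passed for days 3 against 1 (adjusted p = 0.00422, 0.0238 and 0.0183), and Gbp7 was lost at day 1 (adjusted p = 0.0652). Beside Ddx58 the block changed no call of a KO comparison of days 3 against 0 or 3 against 1.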
